A study of Homo sapiens with 6 samples.

Results

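Kinesins are motor proteins that hydrolyse ATP to move along microtubules or to take their ends apart. A set of them builds and works the mitotic spindle, separates chromosomes and closes the cell at cytokinesis, and the messages of most of these accumulate in G2 and mitosis and are low in resting cells. Others carry vesicles, organelles and RNA through the cytoplasm throughout the cell cycle, and further members serve cilia and signalling.

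The kinesin family was taken from a deposited table of 36651 genes as the protein-coding genes with a symbol of the form KIF followed by a number, or KIFC followed by 1 to 3. This gave 41 genes, all 41 of which the table describes as kinesins. PolyA RNA of HCT116, an established human line from a colorectal carcinoma with epithelial morphology, was sequenced in 3 libraries labelled siMTA1 and 3 control libraries. The targeted gene, MTA1, encodes a component of the NuRD chromatin complex, a remodeller and histone deacetylase. The siMTA1 samples are also titled CrMTA1, which the labels do not explain, and the control samples are also titled WT, so how MTA1 was lowered and what the control cells received are uncertain. The values are FPKM, fragments scaled by gene length and by the mapped fragments of the library, so levels can be compared between genes.

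By role, 14 of the 41 genes were mitotic kinesins, 17 transport kinesins, and 10 kinesins of cilia, signalling or other functions. Testing required a 6-library mean of 1 FPKM or more, which 32 kinesins passed: 13 mitotic, 15 transport and 4 other. Differences were tested in limma on log2(FPKM + 1) over all 12141 genes that passed this filter, siMTA1 against control, and a gene was called at a Benjamini-Hochberg adjusted p under 0.05. A log2 fold change is on this scale, which understates the change of low genes, and a positive one means a higher level with siMTA1. Errors of FPKM are SD over 3 libraries. The labels do not say that the libraries came from separate cultures, so p-values measure the spread between these libraries only.

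MTA1 itself stood at 44.55, 43.98 and 47.97 FPKM in the siMTA1 libraries, against 65.90, 67.61 and 66.74 FPKM in the control libraries. The groups did not overlap, and the log2 fold change was −0.54 (limma adjusted p = 0.000376; exact two-sided permutation p = 0.1, the smallest that 3 against 3 libraries allow). Depths implied by the steps of the lowest values were 57200000 to 66700000 fragments in the siMTA1 libraries and 42900000 to 65400000 in the control libraries. Of all tested genes 18.2% were called, 6.13% higher and 12.1% lower with siMTA1, and their median log2 fold change was −0.05. The split was 744 higher and 1463 lower, against 1128 higher and 802 lower when each library was centred on its median. Of 9 epithelial markers 7 were tested, 1 was called higher and 2 lower, and their sum was 5708 to 6353 FPKM in siMTA1 libraries and 6603 to 6920 FPKM in control libraries. The fixed immune and endothelial markers summed to at most 0.51 and 0.28 FPKM in a siMTA1 library and 0.53 and 0.24 FPKM in a control library. Of the fibroblast markers COL1A1 reached 2.37 FPKM in siMTA1 and 1.89 FPKM in control libraries, while DCN and PDGFRA were listed at 0.

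Most mitotic kinesins rose with siMTA1, and most transport kinesins were not called. Of the 13 mitotic kinesins tested, 8 were called higher and 0 lower, against 6.13% and 12.1% of all tested genes. Of the 15 transport kinesins, 2 were called higher and 0 lower, and of the 4 others 1 was called higher and 0 lower. The median log2 fold change was 0.34 for the mitotic, 0.04 for the transport and 0.12 for the other kinesins. For the whole family that makes 11 higher and 0 lower of 32, against 18.2% of all tested genes called in either direction. At an unadjusted limma p under 0.05, 17 were higher and 1 lower, against 11.5% and 23.5% of all tested genes. All siMTA1 values lay above all control values in 16 of the 32 and below them in 2, against 13.2% and 25.9% of all tested genes, or 39.1% in either direction. These are descriptions of chosen lists, and the difference between the roles was not tested. The family count became 7 higher without siMTA1 library 2 and 7 without control library 2, while the mitotic count stayed between 6 and 10 when any library was left out.

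**Figure D1:**
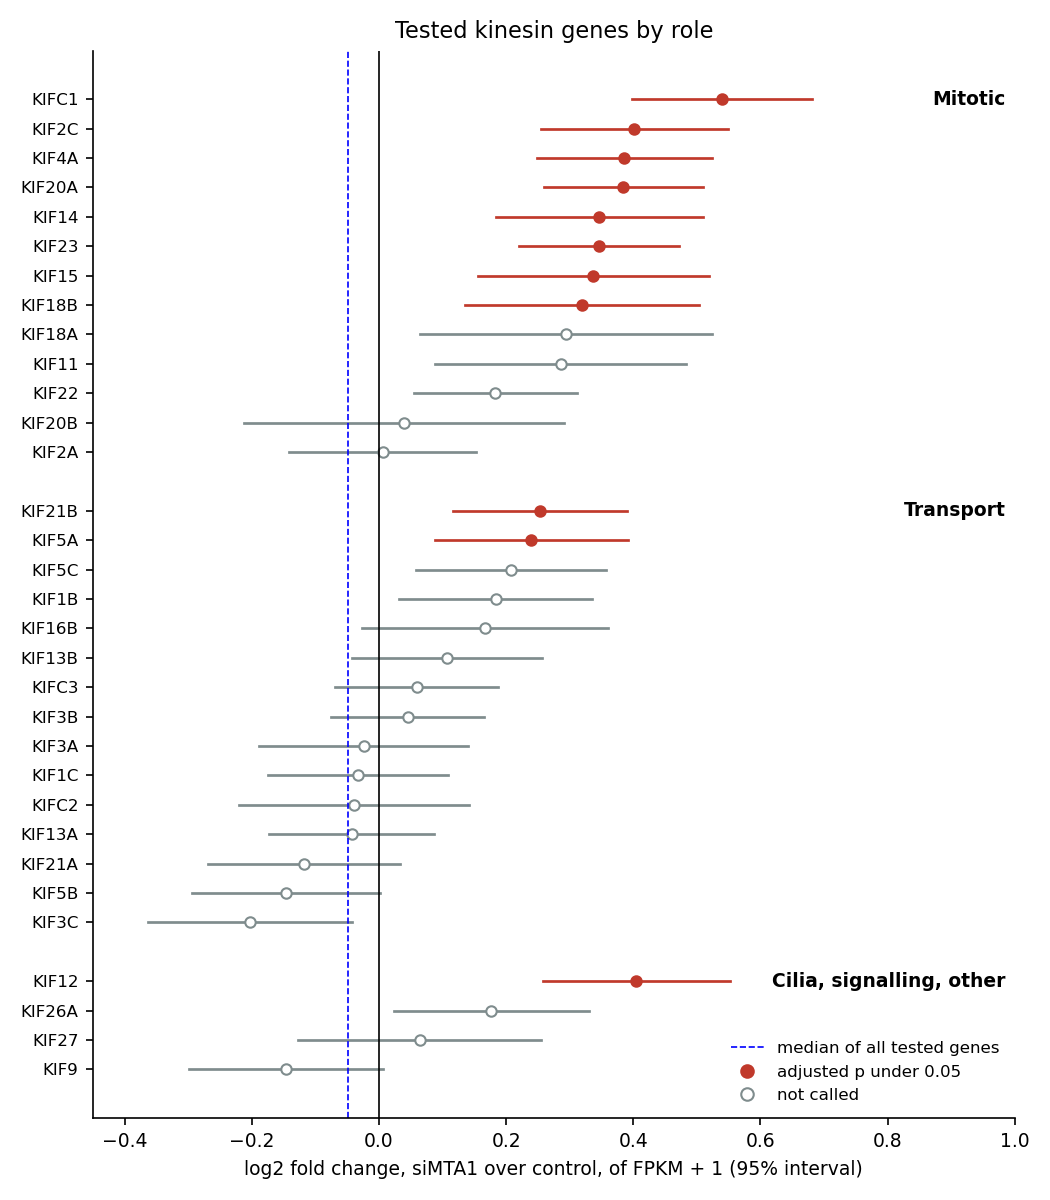
Log2 fold change, siMTA1 over control, of FPKM + 1 for the 32 tested kinesins, grouped by role and ordered by size within a role; lines are 95% intervals of limma, filled points are genes with an adjusted p under 0.05, and the dashed line is the median of all tested genes (−0.05). All 13 mitotic points lie at or right of 0, up to 0.54 for KIFC1, while the transport points spread from −0.20 for KIF3C to 0.25 for KIF21B.

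Levels were also summed over the genes of each role. Mitotic kinesins summed to 158.9, 158.4 and 157.4 FPKM in the siMTA1 libraries, against 126.8, 125.5 and 118.2 FPKM in the control libraries. Transport kinesins summed to 179.0, 180.3 and 174.6 FPKM in the siMTA1 libraries and 184.4, 185.9 and 181.3 FPKM in the control libraries. Mitotic genes thus held 45.6% to 46.3% of all kinesin FPKM in siMTA1 libraries and 38.6% to 39.8% in control libraries. The mitotic sums did not overlap between the groups, and the log2 ratio of their means was 0.36. The transport sums did not overlap either, with a log2 ratio of −0.05, while the median log2 fold change of all tested genes was also −0.05. The transport sums averaged 177.9 FPKM with siMTA1 and 183.9 FPKM in control, and KIF5B alone averaged 60.96 FPKM with siMTA1 and 67.56 FPKM in control. Of the 15 tested transport kinesins, 8 had a log2 fold change above 0.

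**Figure D2:**
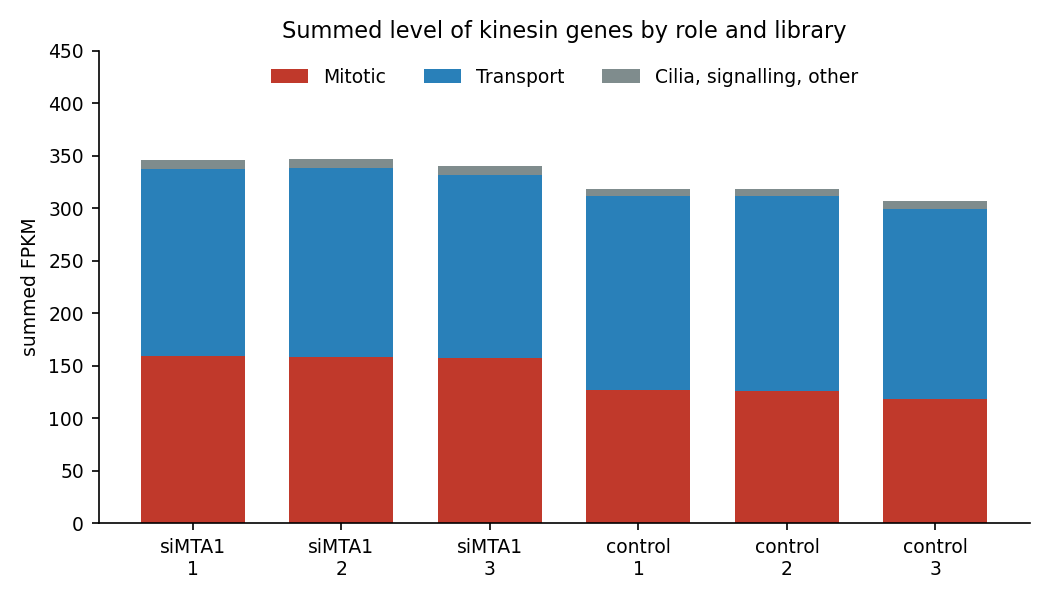
Summed FPKM of the 41 kinesin genes in each library, stacked by role, with the siMTA1 libraries left of the control libraries. The mitotic segment is 157.4 to 158.9 FPKM in siMTA1 libraries and 118.2 to 126.8 FPKM in control libraries and the segment of other kinesins is 7.87 to 8.63 FPKM in siMTA1 libraries and 6.94 to 7.37 FPKM in control libraries.

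Promoter sequences of the family were looked at as a description, and their part in the differences was not tested. In cell cycle genes that peak in G2 and mitosis, the cell cycle genes homology region, or CHR, is bound by complexes that contain the MuvB core, often near CCAAT boxes bound by NF-Y. RefSeq windows (GRCh38.p14) from 250 bases before to 50 bases after the annotated start, taken at the start farthest upstream where a gene has several, were found for 33 of the 41 kinesins. The CHR was searched as TTTGAA or TTCGAA and the CCAAT box as CCAAT, on both strands; the motifs can share bases at their ends, and a match is a run of letters and not a shown binding site. The promoters of KIFC1, KIF23 and KIF4A, which rose, hold both motifs, KIF20A, which also rose, holds CCAAT boxes only, and KIF5B is the most abundant transport kinesin. Capitals mark the matches, so that CCAAT on the other strand reads ATTGG and TTTGAA reads TTCAAA.
KIFC1, chr6:33391573-33391872, plus strand: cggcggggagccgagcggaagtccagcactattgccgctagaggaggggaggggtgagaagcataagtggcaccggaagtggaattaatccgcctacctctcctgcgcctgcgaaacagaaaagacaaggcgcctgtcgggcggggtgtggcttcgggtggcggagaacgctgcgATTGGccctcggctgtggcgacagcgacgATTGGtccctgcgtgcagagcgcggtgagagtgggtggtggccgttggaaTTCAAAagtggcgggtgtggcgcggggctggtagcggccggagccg
KIF23, chr15:69414099-69414398, plus strand: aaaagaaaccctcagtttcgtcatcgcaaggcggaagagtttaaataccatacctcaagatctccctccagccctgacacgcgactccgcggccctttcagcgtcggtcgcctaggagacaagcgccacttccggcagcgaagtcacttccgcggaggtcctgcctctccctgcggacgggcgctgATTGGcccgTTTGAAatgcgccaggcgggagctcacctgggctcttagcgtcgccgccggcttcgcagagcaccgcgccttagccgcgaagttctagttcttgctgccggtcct
KIF4A, chrX:70289854-70290153, plus strand: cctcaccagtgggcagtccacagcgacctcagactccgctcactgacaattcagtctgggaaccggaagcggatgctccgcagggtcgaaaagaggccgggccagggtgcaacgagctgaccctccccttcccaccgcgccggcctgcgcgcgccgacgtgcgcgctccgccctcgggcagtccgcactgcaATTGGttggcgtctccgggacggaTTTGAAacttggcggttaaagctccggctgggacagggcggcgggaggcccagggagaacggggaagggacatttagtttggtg
KIF20A, chr5:138178862-138179161, plus strand: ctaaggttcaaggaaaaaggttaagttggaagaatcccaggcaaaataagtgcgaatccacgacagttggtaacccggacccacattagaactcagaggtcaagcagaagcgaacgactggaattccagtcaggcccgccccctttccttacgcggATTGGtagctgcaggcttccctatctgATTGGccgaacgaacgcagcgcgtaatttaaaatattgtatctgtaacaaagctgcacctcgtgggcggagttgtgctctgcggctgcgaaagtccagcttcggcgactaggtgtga
KIF5B, chr10:32056376-32056675, minus strand: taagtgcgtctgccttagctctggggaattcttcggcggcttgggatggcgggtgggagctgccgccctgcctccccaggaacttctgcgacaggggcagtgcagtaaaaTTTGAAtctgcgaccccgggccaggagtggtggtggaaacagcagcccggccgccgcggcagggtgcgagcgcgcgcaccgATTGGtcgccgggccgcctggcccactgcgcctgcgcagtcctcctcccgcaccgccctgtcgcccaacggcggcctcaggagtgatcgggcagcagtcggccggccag

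CHR letters stood in the promoters of 10 of the 13 tested mitotic kinesins and of 1 of the 12 transport kinesins with a window, against 16.7% of 27305 RefSeq gene promoters. CCAAT stood in 10 of the 13 and 4 of the 12, against 35.7% of all promoters, and both motifs together in 9 of the 13 and 1 of the 12, against 6.63%. The 12 include the untested KIF17 and KIF1A. They lack KIF21B and KIF5A, the transport kinesins called higher, and KIFC2, KIFC3 and KIF13B, for which no window was found. In KIF23 the CHR letters stood at position −55 from the start and the inverted CCAAT at −64, and in KIF4A they stood at −34 and −58. CHR letters were in 6 of the 8 mitotic kinesins called higher and 4 of the 5 tested but not called. Both motifs were in 5 of those 8 and in 4 of those 5, the latter KIF22, KIF11, KIF20B and KIF18A. KIF2C, called, and KIF2A, not called, held neither motif in the window. In the transport kinesin KIF5B the CHR letters stood at −140, farther upstream than in any mitotic kinesin that holds them.

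**Figure D3:**
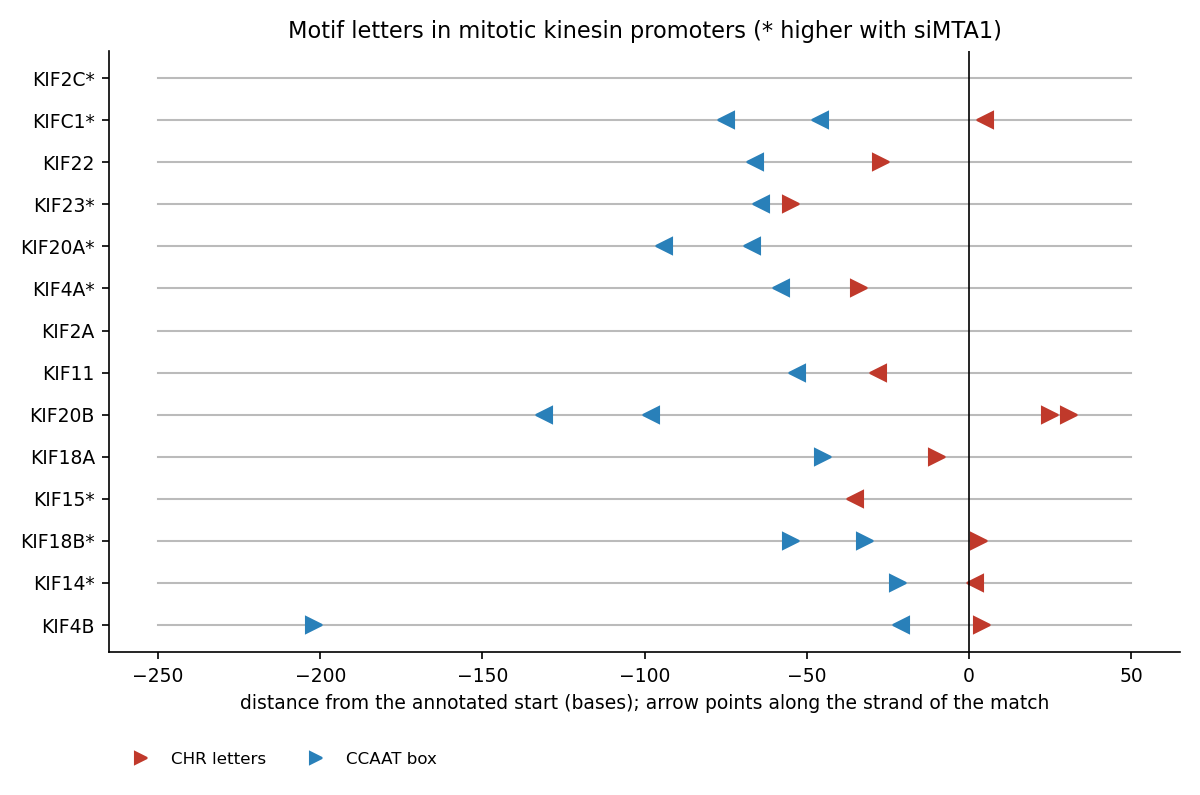
Positions of CHR and CCAAT letters in the promoter windows of the 14 mitotic kinesins, in bases from the annotated start; arrows point along the strand of the match and an asterisk marks genes called higher with siMTA1. CHR letters fall between −55 and 31 in 11 of the 14 windows, and KIF2C and KIF2A show no mark.

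Motors that shape spindle poles and centromeres included KIFC1, which had the largest log2 fold change of the 32 tested kinesins. KIFC1 (ENSG00000237649.7, chr6:33391536-33409924 in GENCODE 29 on GRCh38), a minus-end-directed motor that bundles spindle poles and clusters extra centrosomes, was at 24.01, 26.47 and 25.62 FPKM in the siMTA1 libraries and 17.07, 18.18 and 16.20 FPKM in the control libraries. Every siMTA1 value lay above every control value, and the siMTA1 mean was 148% of the control mean (log2 fold change 0.54, SE 0.06, limma adjusted p = 0.000873). An RPL12 pseudogene on the opposite strand shares 12.7% of the exon length of KIFC1 in GENCODE 29. The labels do not say whether the counting used strand, so the level of KIFC1 is uncertain. KIF2C (chr1:44739818-44767767), a kinesin-13 that takes microtubule ends apart at centromeres and is the most abundant mitotic kinesin here, was at 31.83, 31.71 and 34.65 FPKM with siMTA1 and 24.74, 26.10 and 22.81 FPKM in control (log2 fold change 0.40, adjusted p = 0.00442). The groups were again separate. Its relative KIF2A, which works at spindle poles and also in neurons, was at 8.97, 8.67 and 9.31 FPKM with siMTA1 and 9.44, 9.23 and 8.20 FPKM in control. These ranges overlapped, with a log2 fold change of 0.01 (95% interval −0.14 to 0.15, adjusted p = 0.960). Whether KIF2C and KIF2A differ in response was not tested. KIF2A shares 8.97% of its exon length with IPO11 on the same strand, so its level is uncertain.

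The motors of the central spindle and of cytokinesis, where the cell divides, rose with siMTA1 except for KIF20B. KIF23 is the motor of centralspindlin, the complex that calls the contractile ring to the midzone. It was at 18.43, 17.19 and 17.11 FPKM in siMTA1 libraries and 13.98, 13.47 and 13.37 FPKM in control libraries (log2 fold change 0.35, SE 0.06, limma adjusted p = 0.00427). Its groups were far apart relative to their spread, with SDs of 0.740 FPKM with siMTA1 and 0.327 FPKM in control. KIF20A, which brings the chromosomal passenger complex to the midzone, was at 13.74, 12.84 and 13.37 FPKM with siMTA1 and 10.28, 9.82 and 9.80 FPKM in control (log2 fold change 0.38, adjusted p = 0.00266). KIF4A, a chromosome-bound motor that also limits the length of the midzone with PRC1, was at 11.27, 11.02 and 11.62 FPKM with siMTA1 and 8.59, 8.86 and 7.82 FPKM in control (log2 fold change 0.39, adjusted p = 0.00403). Both genes had all siMTA1 libraries above all control libraries. KIF14, which works with citron kinase in the last step of division, was a low gene at 3.06, 2.81 and 2.57 FPKM with siMTA1 and 2.15, 1.97 and 1.87 FPKM in control (log2 fold change 0.35, adjusted p = 0.0125). Fitting all genes without a minimum level ended the call (adjusted p = 0.0763). KIF20B, a motor of late cytokinesis, was at 5.69, 5.84 and 4.55 FPKM with siMTA1 and 6.27, 4.81 and 4.54 FPKM in control. Its groups overlapped, with a log2 fold change of 0.04 (95% interval −0.21 to 0.29, adjusted p = 0.831).

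For motors that push spindle poles apart or align chromosomes, calls were absent or did not hold without each library. In FPKM, the siMTA1 mean was 134% of the control mean for KIF15 and 135% for KIF18B. That share was 129% for KIF23 and 148% for KIFC1. KIF15, which keeps the poles apart beside KIF11, was at 5.14, 5.04 and 4.19 FPKM in siMTA1 libraries and 3.85, 3.59 and 3.29 FPKM in control libraries (log2 fold change 0.34, SE 0.08, limma adjusted p = 0.0209). KIF18B, which shortens astral microtubules, was at 3.26, 3.21 and 2.90 FPKM with siMTA1 and 1.98, 2.33 and 2.63 FPKM in control (log2 fold change 0.32, SE 0.08, adjusted p = 0.0273). Both were separate between the groups, but neither call held without each library. For KIF15 the adjusted p was 0.0672 and 0.0759 without siMTA1 library 1 or 2 and 0.0641 and 0.0572 without control library 2 or 3. For KIF18B it was 0.0774 and 0.0873 without siMTA1 library 1 or 2 and 0.0658 and 0.0755 without control library 1 or 2.

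KIF11, the motor that slides spindle poles apart and the target of several antimitotic drugs, was at 7.09, 6.51 and 5.64 FPKM with siMTA1 and 5.33, 5.41 and 4.49 FPKM in control. The groups did not overlap, yet the log2 fold change of 0.29 (SE 0.09) missed the threshold (limma adjusted p = 0.0507). Without siMTA1 library 3 it passed (adjusted p = 0.0278), and without any other single library it did not (0.0623 to 0.146). KIF18A, which dampens chromosome movements at the metaphase plate, was at 5.50, 5.17 and 4.04 FPKM with siMTA1 and 4.23, 3.81 and 3.36 FPKM in control. Its lowest siMTA1 library fell below its highest control library (log2 fold change 0.29, adjusted p = 0.0737). Without siMTA1 library 3 KIF18A too passed (adjusted p = 0.0211), and without any other single library it did not (0.0566 to 0.202). KIF22, which pushes chromosome arms away from the poles, was at 20.87, 21.86 and 21.82 FPKM with siMTA1 and 18.83, 17.93 and 19.77 FPKM in control, without overlap (log2 fold change 0.18, adjusted p = 0.0536). An antisense gene shares 13.0% of the exon length of KIF22, so its level is uncertain. KIF22 and KIF11 passed under upper-quartile scaling, quantile normalization and median centring, with adjusted p of 0.0210 to 0.0367. KIF4B, a near-identical intronless copy of KIF4A, reached at most 0.01 FPKM in a siMTA1 library and 0.03 FPKM in a control library. It was not tested, and reads could have been split between it and KIF4A.

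**Figure D4:**
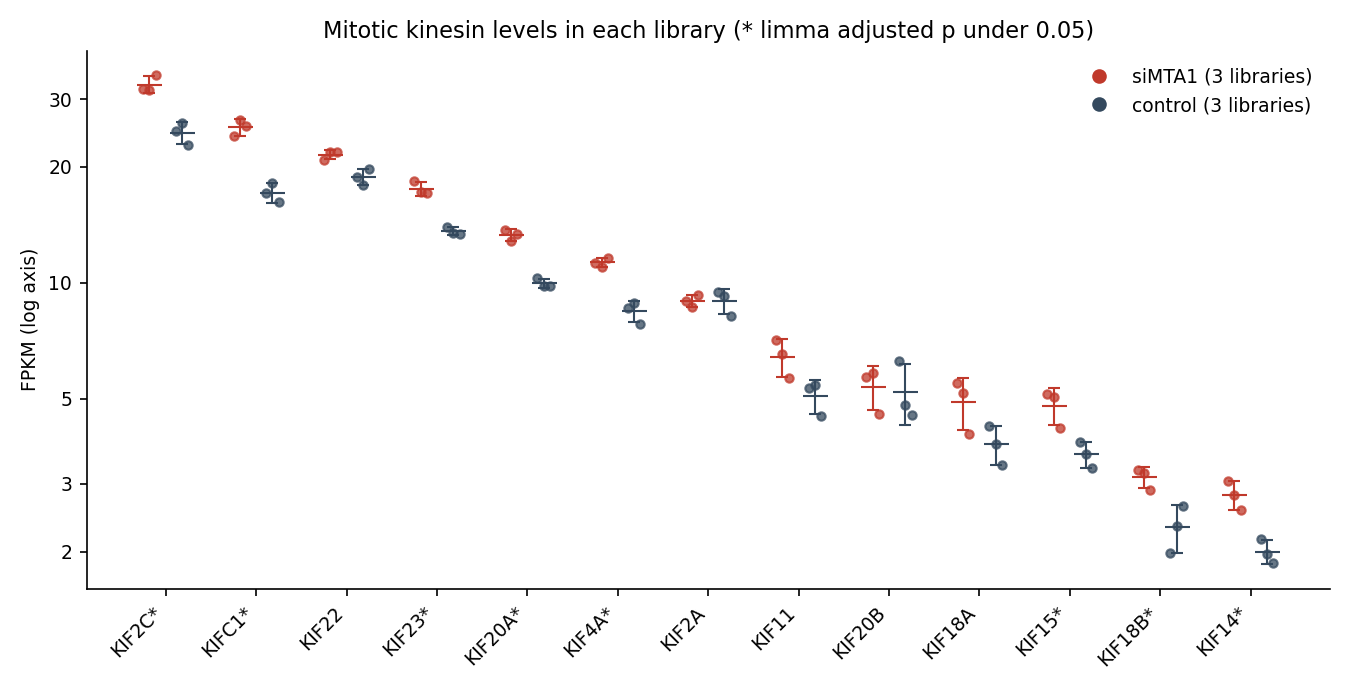
FPKM of the 13 tested mitotic kinesins in each library on a log axis, ordered by mean level; points are libraries, with the 3 siMTA1 libraries left of the 3 control libraries of each gene, and bars are the mean and SD. The groups are separate for 10 of the 13 genes and overlap for KIF2A, KIF20B and KIF18A.

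Within each group library 3 was the lowest for mitotic kinesins as a set. The median deviation of the 13 genes from the control mean of log2(FPKM + 1) was 0.41, 0.35 and 0.24 in siMTA1 libraries 1, 2 and 3 and 0.04, 0.01 and −0.09 in control libraries 1, 2 and 3. The lowest siMTA1 library thus stood above the highest control library. Other G2/M genes moved alongside, from a list without genes of the naming rule that does include the kinesin CENPE. Of these, 23 of 50 tested were called higher and 0 lower (34 higher and 0 lower at an unadjusted limma p under 0.05). Their median was 0.23 on the log2 fold change scale. Of all tested genes 6.13% were called higher and 12.1% lower, or 11.5% and 23.5% unadjusted. The proliferation marker MKI67 was at 43.5 ± 1.77 FPKM in siMTA1 libraries and 28.6 ± 1.03 FPKM in control libraries (log2 fold change 0.59, adjusted p = 0.000286), and HMGB2, HJURP and AURKB were at 0.51, 0.49 and 0.42 on the log2 fold change scale. Of the G1/S genes, 10 of 43 were called higher and 0 lower (15 and 0 unadjusted), against the same shares, and their median was 0.09 on that scale. Among them were UHRF1 (log2 fold change 0.43), CDC6 (0.31), RRM1 (0.29) and FEN1 (0.26). In such bulk RNA, more cells in G2 and mitosis and more RNA per such cell cannot be told apart, and the part of cell cycle composition in the kinesin differences was not tested.

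Partners of the mitotic kinesins rose in 12 of 26 and fell in 0, against 6.13% and 12.1% of all tested genes (18 and 0 unadjusted, against 11.5% and 23.5%), with a median log2 fold change of 0.24; 15 of the 26 are also in the G2/M list. INCENP, the scaffold of the chromosomal passenger complex that KIF20A relocates, was at 22.2 ± 1.33 FPKM in siMTA1 libraries and 14.7 ± 1.17 FPKM in control libraries (log2 fold change 0.56, limma adjusted p = 0.00131). AURKB, the kinase of that complex, was at 35.6 ± 0.524 FPKM with siMTA1 and 26.4 ± 0.647 FPKM in control. CIT, the citron kinase that partners KIF14, was at 3.52 ± 0.162 FPKM with siMTA1 and 2.43 ± 0.0902 FPKM in control, and CCNB1, the mitotic cyclin, at 34.5 ± 1.13 FPKM with siMTA1 and 28.0 ± 0.433 FPKM in control. CENPE, a kinetochore kinesin whose symbol lies outside the family's naming rule, was at 3.11, 3.47 and 2.09 FPKM with siMTA1 and 2.99, 2.43 and 2.13 FPKM in control. It overlapped between groups and was not called (log2 fold change 0.14, adjusted p = 0.509).

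**Figure D5:**
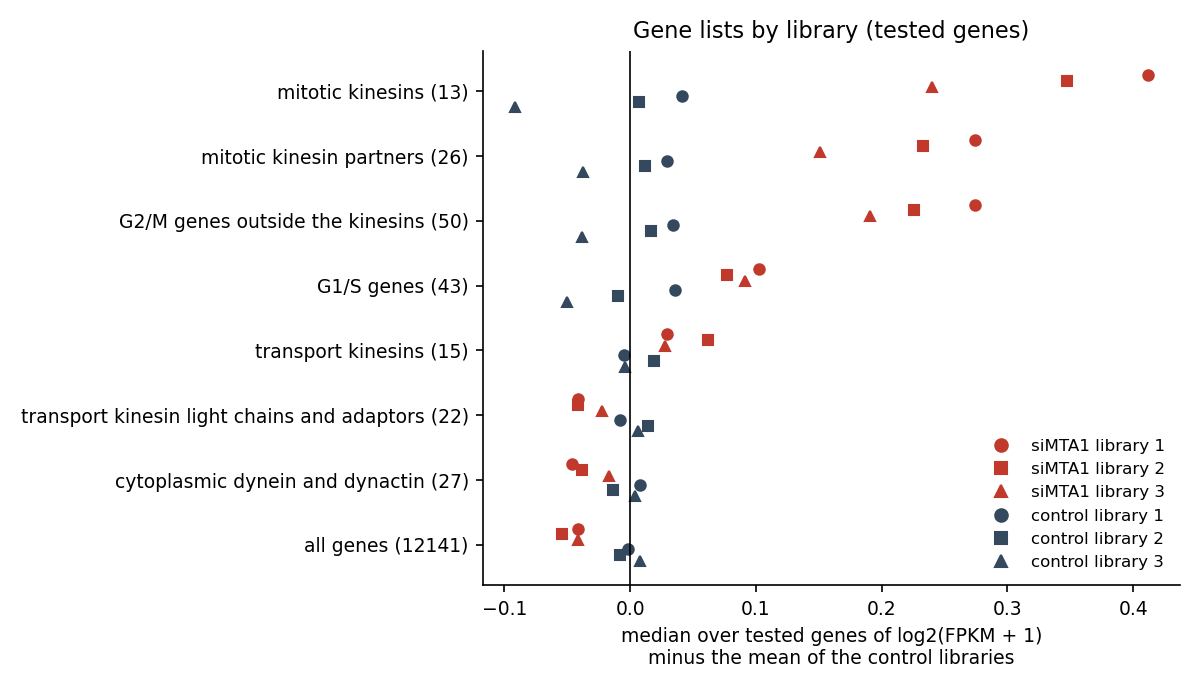
Median over the tested genes of each list of log2(FPKM + 1) minus the mean of the control libraries, for each library, with the number of tested genes in parentheses; siMTA1 libraries are drawn above control libraries and marker shape is the library number. Mitotic kinesins lie at 0.24 to 0.41 in siMTA1 libraries and −0.09 to 0.04 in control libraries, while transport kinesins lie at 0.03 to 0.06 in siMTA1 libraries and −0.0047 to 0.019 in control libraries.

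Transport kinesins included the most abundant of the 41 kinesins, KIF5B and KIF1C, and those were not called. KIF5B, the ubiquitous heavy chain of conventional kinesin, was at 64.93, 59.92 and 58.02 FPKM in siMTA1 libraries and 70.65, 69.14 and 62.89 FPKM in control libraries (log2 fold change −0.15, 95% interval −0.29 to 0.0018, limma adjusted p = 0.147). The ranges overlapped in a single siMTA1 library, library 1. KIF1C, a kinesin-3 that carries dense core vesicles and integrins, was at 34.93, 38.39 and 39.06 FPKM with siMTA1 and 36.31, 39.36 and 39.32 FPKM in control (log2 fold change −0.03, 95% interval −0.17 to 0.11). Next in level came the C-terminal motors KIFC2 and KIFC3, at 13.6 ± 1.41 and 13.3 ± 0.191 FPKM with siMTA1 and 14.02 ± 1.04 and 12.7 ± 0.627 FPKM in control. KIFC2 shares 17.8% of its exon length with FOXH1 on the opposite strand, so its level is uncertain.

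The subunits of kinesin-2, which carries cargo in the cytoplasm and within cilia, had no subunit called. KIF3A was at 6.35, 6.78 and 5.47 FPKM with siMTA1 and 6.36, 6.27 and 6.27 FPKM in control, and KIF3B at 11.56, 11.66 and 11.87 FPKM with siMTA1 and 11.64, 11.25 and 11.04 FPKM in control. Both overlapped between groups, with log2 fold changes of −0.02 and 0.04. KIF3C, the alternative partner of KIF3A, was at 3.37, 3.72 and 3.87 FPKM with siMTA1 and 3.97, 4.54 and 4.56 FPKM in control. It was the sole transport kinesin with all siMTA1 values below all control values (log2 fold change −0.20, limma adjusted p = 0.0765), and without control library 1 it passed (−0.26, adjusted p = 0.0463). KIF3C passed in 3 of the 18 alternative settings in which it was tested. KIFAP3, the accessory subunit of kinesin-2, was at 3.77 ± 0.420 FPKM with siMTA1 and 3.96 ± 0.229 FPKM in control.

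The 2 transport kinesins called higher were low genes, whose change the log2 scale used here understates. The siMTA1 mean was 128.5% of the control mean for KIF21B and 129.2% for KIF5A. Among called mitotic kinesins that share was 129.2% for KIF23 and 147.9% for KIFC1. KIF21B, which slows microtubule growth and is known from neurons and lymphocytes, was at 2.56, 2.65 and 2.77 FPKM in siMTA1 libraries and 2.06, 2.05 and 2.10 FPKM in control libraries (log2 fold change 0.25, limma adjusted p = 0.0215). Its call ended without siMTA1 library 2 or 3 (adjusted p = 0.0617 and 0.0604) or control library 2 (0.0772). Its paralog KIF21A was at 9.76 ± 0.680 FPKM with siMTA1 and 10.7 ± 0.605 FPKM in control (log2 fold change −0.12, adjusted p = 0.245). KIF5A, a heavy chain known from neurons, was at 1.97, 2.21 and 2.10 FPKM with siMTA1 and 1.50, 1.68 and 1.68 FPKM in control (log2 fold change 0.24, adjusted p = 0.0376). Leaving out any library ended that call, with adjusted p of 0.0563 to 0.119. The third heavy chain, KIF5C, was at 1.83, 2.06 and 1.98 FPKM with siMTA1 and 1.60, 1.60 and 1.48 FPKM in control, without overlap and without a call (log2 fold change 0.21, adjusted p = 0.0571). Of 6 neuronal markers, 1 of the 3 tested was called higher (SYP) and 1 lower (SYT1), their sum was 7.78 to 8.68 FPKM in siMTA1 libraries and 8.04 to 8.47 FPKM in control libraries, and SNAP25 averaged 0.037 FPKM with siMTA1 and 0.020 FPKM in control; their part in the KIF5A and KIF5C values was not tested.

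The remaining kinesin-3 motors, which move endosomes and other vesicles, lay at 2.55 to 4.22 FPKM in control libraries, and none of the 4 was called. KIF1B was higher without overlap, at 3.45, 3.22 and 3.70 FPKM with siMTA1 and 2.76, 3.10 and 2.91 FPKM in control (log2 fold change 0.18, limma adjusted p = 0.0875). KIF16B, a motor of early endosomes, was at 3.14 ± 0.487 FPKM with siMTA1 and 2.67 ± 0.108 FPKM in control, KIF13B at 3.07 ± 0.215 FPKM with siMTA1 and 2.78 ± 0.131 FPKM in control, and KIF13A at 3.97 ± 0.124 FPKM with siMTA1 and 4.12 ± 0.1002 FPKM in control. KIF17, a kinesin-2 motor known from neurons and cilia, averaged 0.937 FPKM with siMTA1 and 0.880 FPKM in control, just under the level required for testing, and KIF1A, a neuronal vesicle motor, did not exceed 0.02 FPKM in any library.

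Light chains and adaptors that link transport kinesins to cargo had 2 of 22 tested genes called higher and 3 lower, near the 6.13% and 12.1% of all tested genes, and a median of −0.03 on the log2 fold change scale. SYBU, which links mitochondria and syntaxin to KIF5B, was at 2.28 ± 0.0252 FPKM in siMTA1 libraries and 3.07 ± 0.210 FPKM in control libraries (log2 fold change −0.31, limma adjusted p = 0.0118). TRAK2, a mitochondrial adaptor, was at 4.06 ± 0.191 FPKM with siMTA1 and 5.00 ± 0.401 FPKM in control. The signalling scaffold MAPK8IP3 was at 10.3 ± 0.111 FPKM with siMTA1 and 8.73 ± 0.412 FPKM in control, and MADD, which links kinesin-3 motors to synaptic vesicles, at 8.92 ± 0.237 FPKM with siMTA1 and 7.61 ± 0.305 FPKM in control. Of 27 tested genes of cytoplasmic dynein and dynactin, the motor of opposite direction, 1 was higher and 0 lower, against 6.13% and 12.1% of all tested genes (1 and 1 at an unadjusted limma p under 0.05, against 11.5% and 23.5%), and the list's median was −0.04. The called gene was NDE1, a dynein regulator with a role in mitosis, at 6.10 ± 0.518 FPKM with siMTA1 and 4.94 ± 0.306 FPKM in control (adjusted p = 0.0352).

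Among kinesins outside spindle and transport, KIF12 rose. KIF12 (chr9:114086126-114099291), which is linked in humans to inherited cholestatic liver disease, was at 2.92, 3.18 and 2.76 FPKM in siMTA1 libraries and 1.95, 1.98 and 2.02 FPKM in control libraries, or 149% of the control mean. The groups were separate by more than their spread (log2 fold change 0.40, SE 0.07, limma adjusted p = 0.00427). KIF26A, a kinesin without ATPase activity that acts in signalling, was at 1.46, 1.66 and 1.60 FPKM with siMTA1 and 1.23, 1.24 and 1.36 FPKM in control, without overlap (adjusted p = 0.1003). KIF27, related to the Hedgehog regulator KIF7, was at 1.78 ± 0.128 FPKM with siMTA1 and 1.67 ± 0.266 FPKM in control. KIF9, a motor of cilia and flagella, was at 1.22, 1.18 and 1.11 FPKM with siMTA1 and 1.50, 1.32 and 1.39 FPKM in control (log2 fold change −0.15, adjusted p = 0.155). Among the 32 tested, KIF9 was the sole kinesin besides KIF3C with every siMTA1 value below every control value, against 25.9% of all tested genes.

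The 9 kinesins under the level required for testing were KIF17, KIF1A and KIF4B, given above, and 6 others. KIF24, a centriole kinesin that restrains cilia, averaged 0.440 FPKM with siMTA1 and 0.390 FPKM in control, and KIF26B 0.127 FPKM with siMTA1 and 0.180 FPKM in control. KIF7, the Hedgehog regulator of the ciliary tip, averaged 0.127 FPKM with siMTA1 and 0.113 FPKM in control. The cilia kinesins KIF6 and KIF19 and the little studied KIF25 stayed at or under 0.08 FPKM in all 6 libraries.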

How the data were processed

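PolyA RNA of 6 HCT116 samples was sequenced as directional paired-end libraries, per the labels' protocols. The authors deposited FPKM per gene, printed to 2 decimals; the submitters' processing notes name cutadapt, TopHat2, edgeR and GRCh38, without versions or roles. The sources used here do not give the counter, its strand setting, the annotation release or the gene lengths. Columns were assigned to samples by name. Depth was implied from genes under 150 bases, with GENCODE 29 lengths, as the depth at which the most values equal 1 fragment within 0.04; 88.9% to 96.9% of their low values were then whole within 0.05 beyond rounding. limma 3.58.1 in R 4.3.3 was fitted with an intensity trend and no covariates, after tests on simulated data; Python 3.11.15, pandas 2.3.3 and matplotlib 3.10.9 did the rest. KIF2B and the planned motif of the motor proteins are not analysed here. The kinesin roles, companion lists and tests were chosen with earlier results of these data known. Every kinesin is reported, called and mitotic ones by library, with up to 4 called genes of each companion list by smallest adjusted p, and CENPE and KIFAP3 beside them. GENCODE 29 held all 41 kinesins. Alternatives were other pseudocounts, filters, scalings, limma settings, replicate numbers as a block, role assignments and each library left out.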

Additional observations from a re-analysis of the deposited data

How the results depend on the processing

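The mitotic kinesin count stayed within 1.5 times of 8, and the mitotic median within the spread between libraries (0.30 to 0.41), under every alternative tried, except that 5 were called with no filter on low values. Without single libraries the counts of genes called higher and lower ranged from 391 to 633 and 642 to 1191, of kinesins called higher from 7 to 11 and lower from 0 to 1, and of transport kinesins called higher from 0 to 1 and lower from 0 to 1; the transport and other medians ranged from 0.024 to 0.053 and from 0.095 to 0.15. With no filter on low values 297 genes were higher and 379 lower, with 6 kinesins and 0 transport kinesins higher, and the median of other kinesins was 0.0040. A minimum mean of 0.1 FPKM left 1 transport kinesin higher and an other median of 0.051. A minimum of 5 FPKM left 7 kinesins, 0 transport and 0 other kinesins higher, and turned the transport median to −0.033, since its low members were then not tested. All genes split 1000 higher to 939 lower under upper-quartile scaling, 1011 to 895 under quantile normalization and 1128 to 802 under median centring, against 744 to 1463 as reported. These scalings put the transport median at 0.086, 0.10 and 0.10 and the other median at 0.15, 0.15 and 0.17, and median centring called 4 transport and 2 other kinesins higher. Pseudocounts of 0.1 and 0.5 put the other median at 0.19 and 0.15. Array weights called 1434 genes higher and 2615 lower, with 2 other kinesins higher and 2 kinesins lower, both transport (KIF5B and KIF3C). Deviations of same-numbered libraries correlated at 0.33, 0.02 and 0.22 across genes, and those of differently numbered libraries at −0.28 to 0.07. The labels do not say whether the numbers are pairs, which was not settled, and the main fit did not use them. With the replicate number as a block, 25% of all tested genes were called, against 18.2% as reported. In that fit 14 kinesins were higher, 11 of them mitotic, and 1 transport kinesin (KIF3C) was lower. Other causes of these shifts were not tested. Depth limits the lowest members: KIF4B, KIF25 and KIF1A had at most 5.6, 7.9 and 22.3 implied fragments in a library.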

Other observations

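Antisense and pseudogene entries of the family lie outside the naming rule. KIF9-AS1, annotated on the opposite strand to KIF9 with exons that share 14.9% of its exon length, was at 0.36, 0.31 and 0.34 FPKM in siMTA1 libraries and 0.20, 0.23 and 0.26 FPKM in control libraries. All siMTA1 values of this antisense gene lay above all control values, while those of KIF9 lay below. KIF9-AS1 was under the level required for testing, and reads of the pair cannot be told apart if strand was not used in counting. KIF25-AS1 and the pseudogene KIF28P were listed at 0 in every control library and at no more than 0.02 FPKM in any siMTA1 library. KIF1BP, which binds several kinesins and keeps them off microtubules, was at 13.94, 12.89 and 13.12 FPKM in siMTA1 libraries and 16.23, 14.88 and 14.20 FPKM in control libraries. The groups did not overlap, and the log2 fold change of −0.17 was not called (limma adjusted p = 0.0962).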
